A study of Mus musculus with 24 samples.

Results

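The comparison described here sets 5 mouse brain libraries of time code 15 against 5 of time code 10, which are 10 of the 24 libraries of the series. All are bulk RNA sequencing of polyadenylated RNA. Per the library names, the time code 10 group was E4-10 1, E3-10 2, E3-10 3, E4-10 3 and E4-10 4, and the time code 15 group was E3-15 1, E3-15 2, E4-15 2, E4-15 3 and E3-15 4, where E3 and E4 are a code in the library name and the last digit is the library's number in its group. Group 10 thus held 2 E3 and 3 E4 libraries and group 15 held 3 E3 and 2 E4. The labels spell out neither code and give no strain, age, sex, treatment or number of animals. The title of the series names ApoE4, Asxl1 and the liver X receptor alpha. Titles name March and April for time code 10 and May and June for time code 15, so the time code and the titled months cannot be told apart. The libraries are called biological replicates, with no word on separate animals, so a p-value here speaks only of the spread among these libraries, part of which may be technical.

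The 10 libraries were chosen by their column number in the count table, which is not a multiple of 3. That division was drawn from measured values, since the libraries at multiples of 3 carry the RNA of cerebellum and hindbrain. Ahnak, H2-K1 and Rxra were selected on their lower values at time code 15 in these same libraries, so for them the 10 libraries give a description and no test. The other 6 libraries of time codes 10 and 15, those at multiples of 3, share no sample with the 10 and are given beside them (E3-10 1, E4-10 2 and E3-10 4 against E4-15 1, E3-15 3 and E4-15 4). Levels are given as CPM, a gene's count per M (mega) counts of the library, after scaling the total by its TMM factor. Differences are log2 fold changes of time code 15 minus time code 10 from edgeR, with E code as a covariate and their standard error (SE).

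Ahnak is a very large scaffold protein that lies under the plasma membrane, binds annexins and S100 proteins and is found in the brain largely in blood vessels. H2-K1 is a classical class I molecule, which shows peptides from inside the cell to CD8 T cells. Class I genes, the guanylate-binding proteins and the oligoadenylate synthetase family are induced by interferons through transcription factors of the STAT and IRF families. Rxra, the retinoid X receptor alpha, pairs with the liver X receptors and other nuclear receptors on DNA, and the liver X receptors switch on genes of cholesterol efflux such as Apoe and Abca1.

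The labelled tissue was checked against its markers. Granule neurons of the cerebellum carry the GABA receptor subunit Gabra6, which reached at most 4.59 CPM in the 10 libraries and stood at 85.9 to 536 CPM in the 6. Forebrain markers ran the other way, with Tbr1 of cortical neurons at 43.5 to 188 CPM in the 10 and at 0.828 to 13.8 CPM in the 6. The region was not even within the 10. The striatal dopamine receptor gene Drd1 stood at 94.5 and 116 CPM in E4-10 3 and E4-10 4, against 10.5 to 62.9 CPM in the other 8. Total counts were 39.8 M to 99.5 M, with a median of 45.3 M, and 9 of the 10 stood at 52.4 M or less, the exception being E3-10 2. Lars2, a mitochondrial leucyl-tRNA synthetase gene, was at 88.2, 63.4 and 234 CPM in E3-15 1, E3-15 2 and E3-15 4, and at 29.1 to 50.8 CPM in the other 7. These 3 are all the E3 libraries of time code 15. With E code as a covariate, a fit without them contrasts the time codes within E4 only, 3 libraries against 2. Such a fit cannot tell high Lars2 from the E code. Of the 6 libraries, E4-15 4 had high Lars2 too, at 83.0 CPM against 32.2 to 35.4 CPM in the other 5, and it had 13.3 CPM of Rn7sk, a short nuclear RNA.

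No gene passed in the 10 libraries under edgeR. Of 19673 genes tested, 0 had an adjusted p under 0.05 in edgeR (0%), the smallest being 0.999, and 809 had an unadjusted p under 0.05, of which 549 were lower (2.79%) and 260 higher (1.32%). DESeq2 called 3 genes lower (0.0153%) and 0 higher, namely Ahnak, Trim21 and Pdxk, and limma-voom called 0. In 122 genes (0.62%) all 5 libraries of time code 15 lay below all 5 of time code 10, and in 65 genes (0.33%) all 5 lay above. The genes described below are named by their values, not by a call in edgeR, unless a tool's call is given.

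Ahnak lay lower at time code 15 in both sets of libraries. At time code 10 it was at 54.4, 65.1, 63.1, 48.4 and 41.2 CPM, in the order in which the libraries were listed, and at time code 15 at 36.9, 35, 32.2, 40.4 and 36.3 CPM. The groups did not overlap, but E4-10 4, the lowest of time code 10, and E4-15 3, the highest of time code 15, were 41.2 and 40.4 CPM. Their means were 54.4 ± 9.97 (SD, n = 5) and 36.2 ± 2.97 (SD, n = 5) CPM, a log2 fold change of -0.62 (SE 0.11). The 6 libraries of time code 05 at column numbers that are not multiples of 3 ran from 33.6 to 52.2 CPM, and overlapped both groups.

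In the 6 libraries at multiples of 3, Ahnak was at 58.0, 53.9 and 56.9 CPM at time code 10 and at 38.9, 39.1 and 39.8 CPM at time code 15. These libraries share no sample with the 10. Ahnak was given with earlier results of these data known, so they may not be independent of its choice. The groups lay apart by more than the spread within either, with a log2 fold change of -0.51 (SE 0.09). An exact permutation test of 3 against 3 cannot give a two-sided p below 0.1, which is the value here. Over all genes of this fit, Ahnak passed in DESeq2 (adjusted p = 0.0374) and not in edgeR (adjusted p = 0.931). The difference between both sets of libraries in this contrast was 0.13 (SE 0.16) on the log2 scale and did not pass in edgeR (adjusted p = 1).

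**Figure D1:**
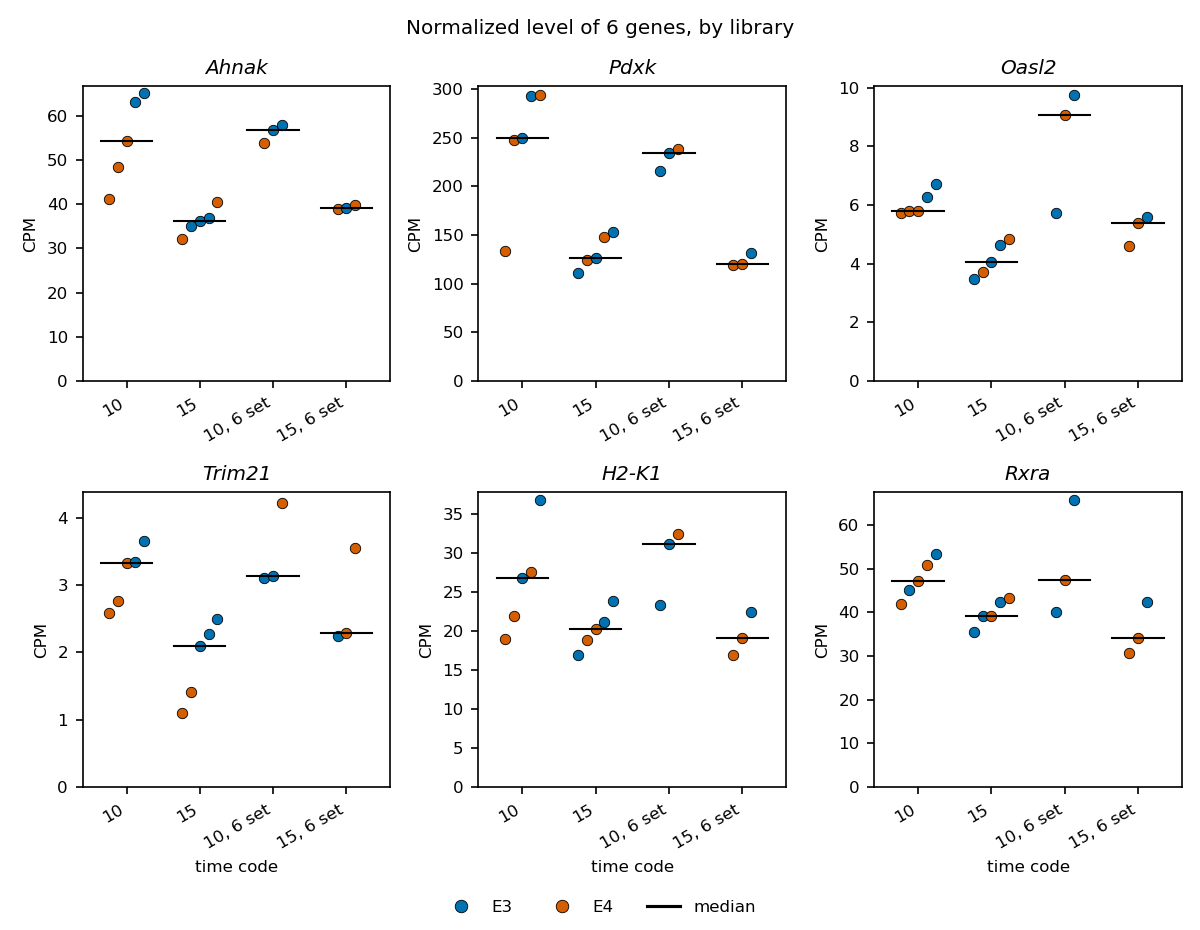
Normalized level (CPM, linear axis from 0) of Ahnak, Pdxk, Oasl2, Trim21, H2-K1 and Rxra in each library, by time code, for the 10 libraries (10, 15) and the 6 libraries at column multiples of 3 (6 set). Points are libraries coloured by E code and bars are medians. The Ahnak groups do not overlap in either set, with 32.2 to 40.4 CPM at time code 15 in the 10 libraries against 41.2 to 65.1 CPM at time code 10.

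Genes of the membrane complexes in which Ahnak sits were mostly lower by less, with log2 fold changes from -0.62 for Ahnak itself to 0.41. Of 18 tested annexin, S100 and caveola genes, Ahnak among them, 14 were below 0 with a median of -0.20, against a median of -0.01 and 52.1% below 0 over all genes, and 0 passed in edgeR. Cavin1, the coat protein that shapes caveolae, was at 29.5 to 49.4 CPM at time code 10 and at 24.2 to 29.1 CPM at time code 15, without overlap (-0.45, SE 0.11). It also lay apart in the 6 libraries, at 32.5 to 43.0 against 26.0 to 30.8 CPM. Cav1, the main caveola protein, overlapped (-0.26, SE 0.08) but did not in the 6 (-0.29, SE 0.19). The groups overlapped in the annexin Anxa2 too (-0.31, SE 0.15). Ehd2, another caveola gene, overlapped at 14.0 to 21.1 CPM against 13.0 to 16.0 CPM. In the 6 libraries Ehd2 leaned the other way, at 13.4 to 19.8 CPM against 16.9 to 22.6 CPM. The list's median was -0.29 in the 6 libraries. It was -0.04 without the 3 libraries with high Lars2, where Ahnak itself stood at -0.40. Caveolae are a mark of vascular cells, and 14 of 15 endothelial genes were below 0 (median -0.14), as were 10 of 11 genes of mural cells (-0.20), which wrap vessels. The endothelial mean ran from 4.95 to 5.30 log2 CPM at time code 10 and from 4.81 to 5.12 at time code 15, and the mural mean from 3.58 to 4.64 and from 3.87 to 4.17. The endothelial median was -0.09 and the mural one -0.08 without E3-10 2, and the mural median was 0.19 without the 3 libraries with high Lars2. The part of vascular RNA in the Ahnak values was not tested.

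Pdxk, the kinase that makes the active form of vitamin B6, was the most abundant of the 3 genes called by DESeq2. It was at 294, 250, 293, 248 and 134 CPM at time code 10 and at 153, 126, 124, 148 and 111 CPM at time code 15. The first 4 libraries of time code 10 lay above all of time code 15, while E4-10 4 lay within its range. The log2 fold change was -0.89 (SE 0.19), and DESeq2 gave an adjusted p of 0.0367. The 6 libraries had Pdxk at 216, 238 and 234 CPM against 120, 132 and 119 CPM, again without overlap (-0.88, SE 0.11). DESeq2 called it there too (adjusted p = 1.94e-06), but that fit also called genes with extreme log2 fold changes, such as Calml3 at 20.7. Pdxk passed in edgeR in neither set, where the smallest adjusted p of any gene was 0.999 in the 10 and 0.781 in the 6. In the 6 libraries of time code 05 outside the multiples of 3 it ran from 132 to 285 CPM and overlapped both groups.

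The genes of the interferon response were mostly lower at time code 15, each by a small amount. Of 26 measured members 21 were below 0 and 5 above, with a median of -0.23, where 52.1% of all genes were below 0, and 0 passed in edgeR. An unadjusted p under 0.05 was reached by 11 lower and 0 higher members, beside 2.79% and 1.32% of all genes. The mean of the list ran from 2.1 to 2.63 log2 CPM in the 5 libraries of time code 10 and from 2.16 to 2.25 in those of time code 15. E4-10 4 was the lowest of all 10, so the groups overlapped. Among the 6 libraries 22 of 26 members were below 0 (median -0.29), and E3-15 3, at 2.48 log2 CPM, lay above E3-10 4, at 2.46. Without the 3 libraries with high Lars2, which leaves only E4 libraries to contrast the time codes, the median was -0.03.

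Short runs of DNA from the interferon response genes Gbp7 and Irgm1, and from Trim21, described below and not on that list, show the letters of the element through which interferon-activated factors act. RefSeq start regions (GRCm38.p6, 250 bases before to 50 after the start) were searched on both strands for GAAANNGAAA, where N is any base. A match was found in 13 of the 21 interferon response genes with an entry and in 3.99% of all 27025 genes in the table. Capitals mark the matched bases, overlapping matches are joined, and each run is written 5′ to 3′ on the gene's strand.
Gbp7: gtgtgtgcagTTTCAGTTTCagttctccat
Irgm1: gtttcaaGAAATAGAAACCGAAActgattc
Trim21: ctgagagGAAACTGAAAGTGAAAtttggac
The run of Gbp7 is at chr3:142530273-142530302 on the plus strand, with the match on the opposite strand. That of Irgm1 is at chr11:48871428-48871457 and that of Trim21 at chr7:102565447-102565476, both genes on the minus strand. The Gbp7 and Irgm1 matches lie before the start and the Trim21 match after it. No match was found for Oasl2, Gbp4, H2-K1, Psmb9 or Ahnak, though a gene without an entry would also give none. A match describes the letters and shows no binding.

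Among these genes, Oasl2 was the member with the smallest p. Oasl2 belongs to the oligoadenylate synthetase family, which senses double-stranded RNA. It was at 5.73, 6.26, 6.71, 5.81 and 5.78 CPM at time code 10 and at 4.62, 4.07, 3.71, 4.85 and 3.48 CPM at time code 15. All 5 libraries of time code 15 were lower (-0.56, SE 0.13; edgeR adjusted p = 0.999, DESeq2 adjusted p = 0.128). The 6 libraries were at 9.74, 9.07 and 5.74 CPM against 4.59, 5.59 and 5.37 CPM and did not overlap either, with E3-10 4 and E3-15 3 the nearest (-0.67, SE 0.26).

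Guanylate-binding proteins are interferon-induced GTPases that attack the vacuoles of intracellular microbes. All 10 tested Gbp genes were below 0 in the 10 libraries (median -0.45) and in the 6 (-0.36), a family counted after its values were seen. Gbp7 was at 7.98 to 9.71 CPM against 5.44 to 7.52 CPM, without overlap (-0.44, SE 0.12). Gbp4, named after its values were seen, was at 3.42 to 5.47 CPM against 2.07 to 3.04 CPM (-0.72, SE 0.17). Both overlapped in the 6 libraries. Irgm1, an immunity-related GTPase, overlapped by 1 library (-0.39, SE 0.10), since E3-15 4 at 8.65 CPM lay just above E4-10 4 at 8.58 CPM.

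Trim21, an antibody receptor of the cytosol that tags bound virus for degradation, was called by DESeq2 (adjusted p = 0.0226). It was at 2.77, 3.34, 3.66, 3.32 and 2.59 CPM at time code 10 and at 2.49, 2.28, 1.41, 1.1 and 2.1 CPM at time code 15. The groups did not overlap, with both E4 libraries of time code 15 the lowest of all 10 (-0.90, SE 0.17). They did in the 6 libraries, since E4-15 1 stood at 3.55 CPM within the range of time code 10 (-0.51, SE 0.25). The time code 05 libraries outside the multiples of 3 ran from 2.45 to 3.93 CPM.

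H2-K1 was lower at time code 15, and the class I list had a smaller median difference (-0.14). H2-K1 was at 27.6, 36.8, 26.8, 22.0 and 19.0 CPM at time code 10 and at 23.8, 21.2, 20.3, 18.8 and 16.9 CPM at time code 15. The groups overlapped, and the highest library was E3-10 2, the one with the deepest sequencing (-0.43, SE 0.14, and -0.28 without E3-10 2). They did not in the 6 libraries, at 31.2, 32.4 and 23.3 CPM against 19.1, 22.5 and 17.0 CPM (-0.57, SE 0.19; edgeR adjusted p = 0.931). Without the 3 libraries with high Lars2 the log2 fold change in the 10 was -0.23.

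Of 16 tested class I genes 15 were below 0, with a median of -0.14, and 0 passed in edgeR. This count holds H2-K1, which was selected for its lower value. The median was -0.09 without E3-10 2 and -0.23 without E4-15 2. Psmb9, an inducible subunit of the immunoproteasome, was at 0.921 to 1.32 CPM against 0.477 to 1.07 CPM (-0.82, SE 0.26). H2-Q4, a class I gene of the Q region, was at 4.10 to 8.01 CPM against 2.64 to 4.46 CPM (-0.59, SE 0.20). Tap1, a subunit of the pump that loads peptides, differed by -0.49 (SE 0.20), and Tap2, its partner, by -0.14 (SE 0.14). Class I genes are near-identical copies of one another, so reads may be shared between H2-K1, H2-D1 and H2-Q4. The list's median was -0.28 in the 6 libraries, with 15 of 16 below 0, and 0.03 in the 10 without the 3 libraries with high Lars2.

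Class II genes, which present peptides to CD4 T cells and in brain are expressed by macrophages at its borders and activated microglia, had larger differences that rested on few libraries. Of 8 genes 6 were below 0 (median -0.54), and 0 passed in edgeR. Cd74, the chaperone of class II, was at 13.3, 21.8, 7.90, 4.36 and 6.01 CPM at time code 10 and at 4.97, 6.80, 5.35, 7.85 and 2.48 CPM at time code 15. E3-10 2 and E4-10 1 stood above the rest, while E4-10 3 was among the low ones (-0.96, SE 0.43). Those high libraries are titled March and the others of time code 10 April. H2-Aa (-1.08, SE 0.50), H2-Ab1 (-0.83, SE 0.43) and H2-Eb1 (-0.87, SE 0.37) had E3-10 2 and E4-10 1 highest as well. Without E3-10 2 the list's median was -0.20, and without the 3 libraries with high Lars2 it was -0.11.

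The 6 libraries showed the same order for class II with less spread. Cd74 was at 13.8, 15.0 and 10.6 CPM at time code 10 and at 6.21, 7.82 and 6.07 CPM at time code 15 (-0.97, SE 0.21). H2-Eb1 was at 4.94, 5.11 and 3.13 CPM against 1.87, 1.96 and 2.13 CPM (-1.20, SE 0.27). Neither passed in edgeR over all genes of that fit, in which 0 of 21174 did (0%). The list's median there was -0.61, with 7 of 8 below 0, and -0.53 without E4-15 4. Without that library the medians of the interferon, class I and Ahnak lists in the 6 were -0.26, -0.28 and -0.29. For Cd74, H2-Eb1, Oasl2 and H2-K1 in the 6, E3-10 1 and E4-10 2, titled March, lay above E3-10 4, titled April. The part of the titled month in the spread within time code 10 was not tested.

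**Figure D2:**
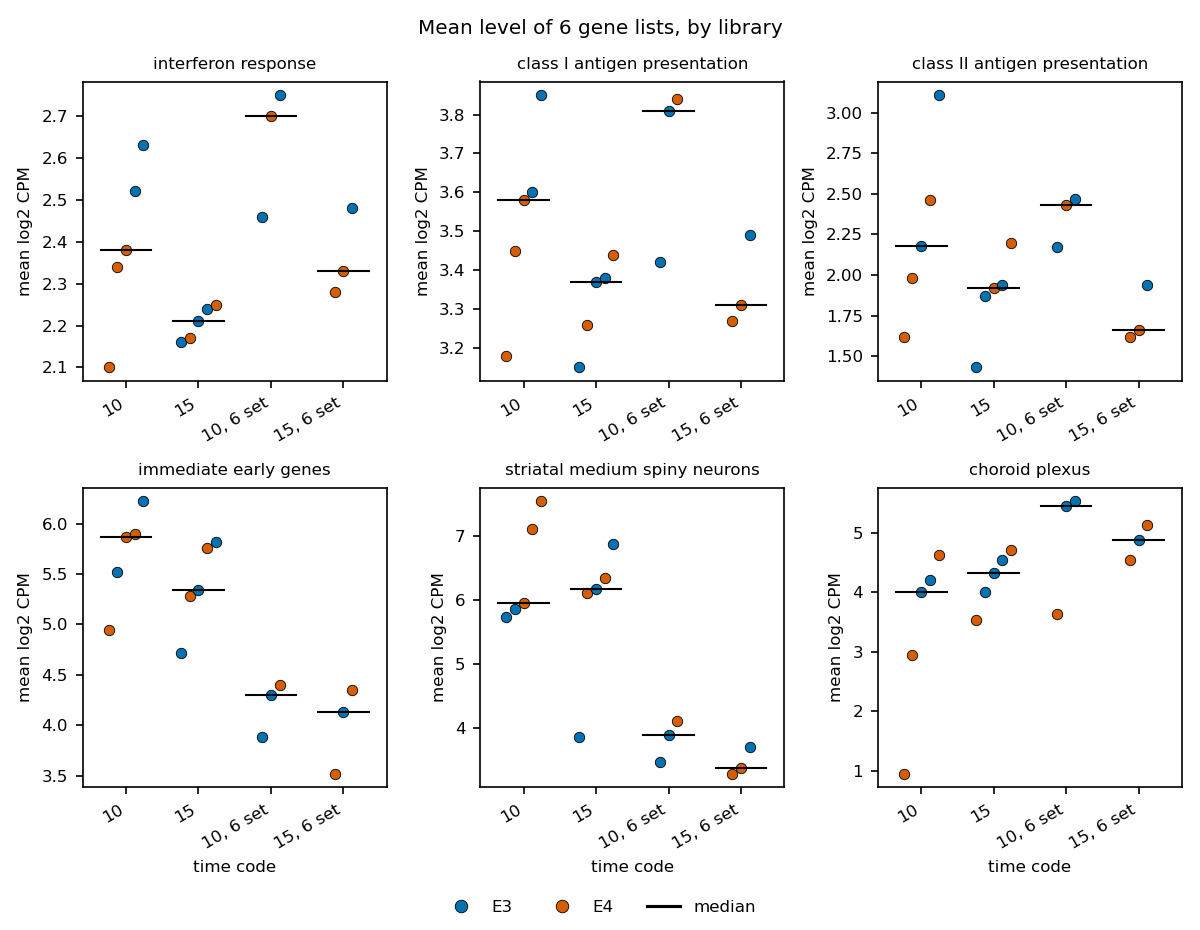
Mean log2 CPM of the tested members of 6 gene lists in each library, by time code, for the 10 libraries (10, 15) and the 6 at column multiples of 3 (6 set). Points are libraries coloured by E code and bars are medians. Interferon response means at time code 15 lie between 2.16 and 2.25 in the 10 libraries, inside the range of time code 10, which is 2.1 to 2.63.

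Microglia, the resident macrophages of the brain, are among the cells that carry these genes. Of 14 homeostatic microglia genes 12 were above 0 with a median of 0.02, and 0 passed in edgeR. Their mean was 4.33 to 4.83 log2 CPM at time code 10 and 4.35 to 4.92 at time code 15. The 6 libraries had 13 of the 14 below 0 (median -0.17). P2ry12, a purine receptor of microglial processes, was at 27.8 to 47.7 CPM against 31.6 to 58.3 CPM (0.21, SE 0.17). The disease-associated microglia list had 11 of 20 genes below 0 (median -0.03), with Spp1 at -0.43 (SE 0.20) and Lyz2 at -0.36 (SE 0.18). Perivascular macrophage genes were below 0 in 7 of 9 (median -0.20), among them F13a1 (-0.33, SE 0.17) and Mrc1 (-0.23, SE 0.14). Their median was 0.07 without the 3 libraries with high Lars2 and -0.12 without E3-10 2. In bulk tissue, fewer cells of a type and less RNA per cell cannot be told apart.

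Of 12 lymphocyte and neutrophil genes 6 were tested, and 5 of these were below 0 (median -0.74). Cd8a, Cd79a, S100a8 and S100a9 had means under 1 CPM at both time codes, with Cd8a at 0.193 and 0.0387 CPM (-2.37, SE 0.95). Cd4, a T cell coreceptor, had means of 25.4 and 13.5 CPM (-0.59, SE 0.67), above every Ptprc value given next. Which cells carried the Cd4 RNA was not tested. Ptprc, the common leukocyte antigen, was at 3.79 to 5.51 CPM against 3.04 to 4.85 CPM and differed by -0.08 (SE 0.15). Il2rb, a receptor chain of cytotoxic lymphocytes that was named after its values were seen, lay at 0.563 to 1.56 CPM against 0.222 to 0.520 CPM, without overlap (-1.26, SE 0.34). It overlapped in the 6 libraries. The mean of the 6 tested genes of the list was -0.17 to 0.36 log2 CPM at time code 10 and -1.35 to -0.18 at time code 15. The nearest libraries of the 2 groups were at -0.174 and -0.183. The expression filter left 6 of the 12 genes and kept Cd8a only through time code 10, where it is higher. The list's values are therefore a description and no test. The part of these cells in the class I and class II values was not tested.

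Rxra was at 50.7, 45.1, 53.4, 41.9 and 47.1 CPM at time code 10 and at 39.2, 42.3, 43.2, 39.2 and 35.4 CPM at time code 15. The groups overlapped through E4-10 3 at 41.9 CPM (-0.26, SE 0.08). They overlapped in the 6 libraries too, at 65.7, 47.4 and 40.0 CPM against 30.8, 42.4 and 34.2 CPM (-0.43, SE 0.20; edgeR adjusted p = 0.931).

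Partners and targets of Rxra showed no common direction. Of 20 nuclear receptors and their corepressors 9 were below 0 and 11 above (median 0.03), and 0 passed in edgeR. Rarg, the retinoic acid receptor gamma, was the member whose groups did not overlap, at 12.5 to 13.5 CPM against 8.61 to 11.8 CPM (-0.34, SE 0.10), but they did in the 6 libraries (-0.08, SE 0.14). Nr1h3, the liver X receptor alpha named in the series title, was at 2.78 to 3.76 CPM against 2.26 to 3.44 CPM (-0.07, SE 0.15, 95% interval -0.44 to 0.29). Of 17 liver X receptor targets and lipid efflux genes 10 were below 0 (median -0.03), with Abca1, the cholesterol exporter, at -0.07 (SE 0.06). Apoe, the lipid carrier named in the title, was at 914 to 1180 CPM against 901 to 1130 CPM (0.03, SE 0.09, 95% interval -0.18 to 0.24, and 0.17 without the 3 libraries with high Lars2). Asxl1, a partner of the BAP1 deubiquitinase and also in the title, was at 59.3 to 67.7 CPM against 55.7 to 64.2 CPM (-0.08, SE 0.06, 95% interval -0.23 to 0.07).

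Chromatin genes near Asxl1 were close to 0. The Asxl, BAP1 and polycomb list had 9 of 19 genes below 0 (median 0.00), with Cbx7 (-0.24, SE 0.09) and Cbx2 (-0.35, SE 0.13), both readers of methylated histone H3, below time code 10 without overlap, as were 0.62% of all genes. The 6 libraries had Cbx7 at 0.15 (SE 0.23), Cbx2 at -0.08 (SE 0.30) and the list's median at 0.12, with 4 of 19 below 0. The writers and erasers of methylation at lysine K4 had 13 of 19 below 0 (median -0.01), with the methyltransferase Kmt2b at -0.21 (SE 0.06) and without overlap. Tet2, an enzyme that oxidizes methylated cytosine, named after its values were seen, was at 29.1 to 31.9 CPM against 20.8 to 27.6 CPM (-0.33, SE 0.08). For the 6 libraries the differences were 0.03 (SE 0.20) for Kmt2b and 0.01 (SE 0.12) for Tet2, and that between both sets for Tet2 was 0.37 (SE 0.15; edgeR adjusted p = 1).

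**Figure D3:**
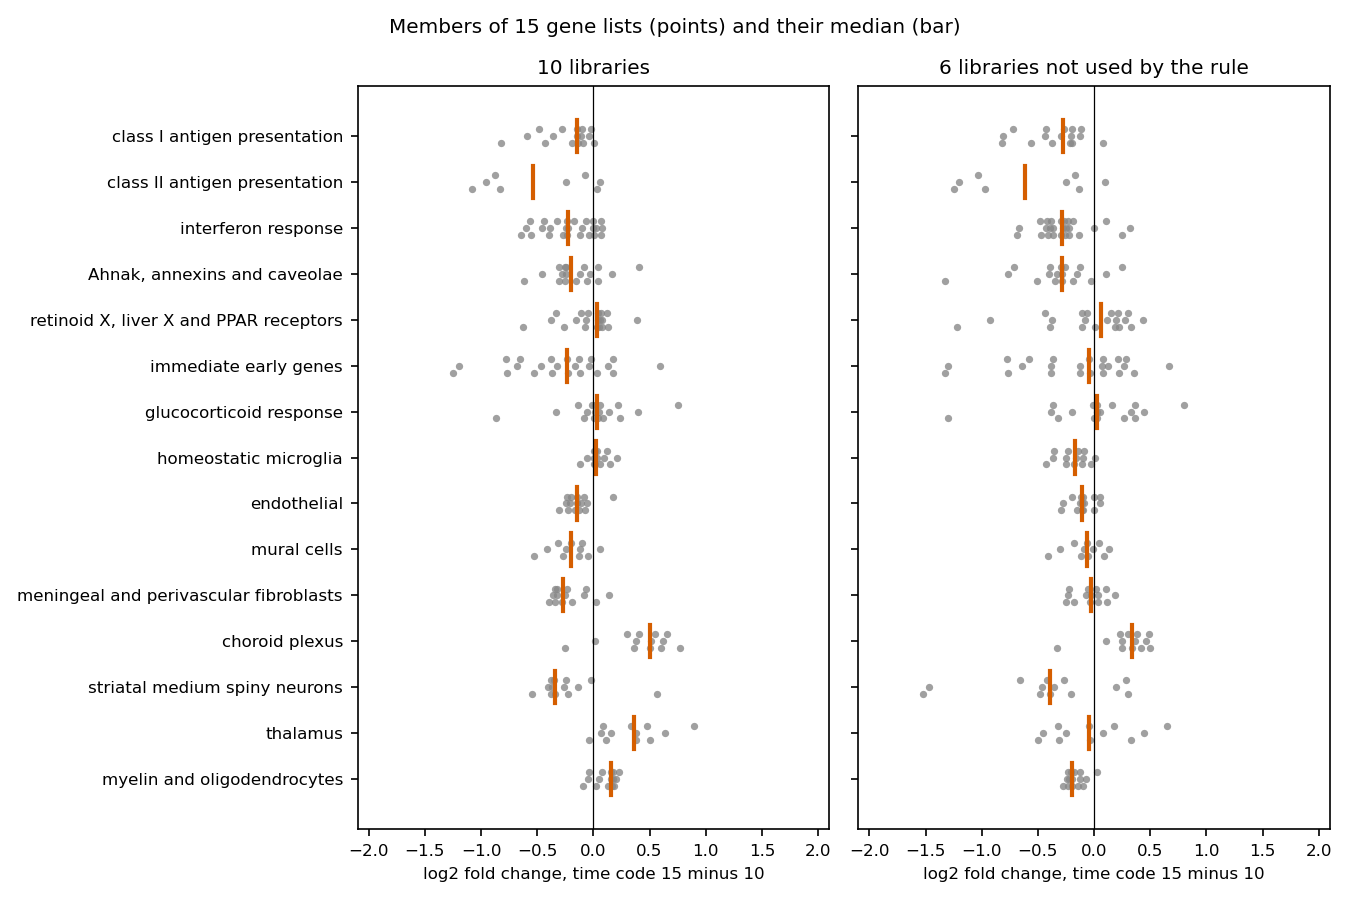
Log2 fold change (time code 15 minus 10) of each tested member of 15 gene lists, in the 10 libraries (left) and the 6 libraries at column multiples of 3 (right). Points are genes, bars are medians and the vertical line is 0. The class II median is -0.54 on the left and -0.61 on the right, whereas the thalamus median is 0.36 and -0.04.

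Fewer genes lay higher at time code 15, and those with the smallest p were weakly expressed. Pcdhgb2, a clustered protocadherin that gives neurons surface identity, was at 5.91, 5.91, 5.44, 7.24 and 6.54 CPM at time code 10 and at 9.59, 7.49, 8.58, 8.54 and 7.79 CPM at time code 15. All 5 were higher (0.46, SE 0.11; edgeR adjusted p = 0.999). Members of the protocadherin gamma cluster share their last exons, so reads may have been divided among them. Pcdhgb2 overlapped in the 6 libraries (0.55, SE 0.26).

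Gm12696, a predicted gene, was at 0.904 to 1.27 CPM against 1.29 to 2.02 CPM (0.71, SE 0.17), and Gm40364, another, at 0.0819 to 0.185 CPM against 0.293 to 0.566 CPM (1.51, SE 0.34). Both overlapped in the 6 libraries. Gm40364, and Rn7s1 given next, passed the expression filter only through time code 15, where they are high. Their differences are therefore a description and no test. Rn7s1, the RNA of the signal recognition particle, had 0, 1, 2, 1 and 0 counts at time code 10 and 14, 22, 0, 5 and 53 at time code 15. The high counts were in the 3 E3-15 libraries that also had high Lars2, and Rn7sk, another short structured RNA without a poly(A) tail, was at 12.9, 12.4 and 46.8 CPM in them and at 0.439 to 4.07 CPM in the other 7. The part of these RNAs in the other differences was not tested.

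Neuronal activity genes were lower at time code 15 in the forebrain-rich libraries. Of 23 immediate early genes 18 were below 0 (median -0.23) and 0 passed in edgeR. Arc, an RNA-binding protein of active synapses, was at 338, 497, 211, 440 and 110 CPM at time code 10 and at 82.2, 189, 175, 102 and 134 CPM at time code 15. E4-10 4 alone fell among the libraries of time code 15 (-1.25, SE 0.38). Npas4, an activity-dependent transcription factor, was at 20.9, 25.7, 12.4, 17.2 and 20.6 CPM against 14.2, 10.6, 10.5, 13.8 and 11.0 CPM (-0.68, SE 0.18), with E3-10 3 the library that overlapped. It did not overlap in the 6 libraries (-0.76, SE 0.30), at lower levels of 3.20 to 8.99 CPM. The list's median was -0.07 without E3-10 2 or E3-15 1. It was -0.36 without E3-10 3, -0.39 without E4-10 4, -0.47 without E4-15 2 and -0.50 without E3-15 2.

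Fos, named after its values were seen, was at 70.9, 73.2, 51.5, 39.8 and 27.0 CPM at time code 10 and at 22.4, 44.2, 38.7, 29.0 and 20.6 CPM at time code 15 (-0.77, SE 0.29). It was at 31.7, 47.4 and 49.6 CPM against 13.2, 21.4 and 15.6 CPM in the 6 libraries, without overlap. DESeq2 called it lower there (-1.34, SE 0.28, adjusted p = 0.0067), while 0 genes passed in edgeR. The list's median in the 6 was -0.04, with 13 of 23 below 0, and -0.14 without E4-15 4. Zfp36, which destabilizes inflammatory transcripts, went the other way in both sets (0.60, SE 0.18, and 0.67, SE 0.36).

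Sgk1, a kinase induced by glucocorticoids, stood higher in most but not all libraries of time code 15. It was at 63.1, 69.4, 65.2, 66.7 and 58.3 CPM at time code 10, a narrow range, and at 57.2, 160, 153, 77.9 and 93.8 CPM at time code 15 (0.75, SE 0.25). The 6 libraries gave 68.3, 58.9 and 66.7 CPM against 55.9, 167 and 89.1 CPM (0.80, SE 0.27). In each set 1 library of time code 15 lay below all of time code 10, namely E3-15 1 and E4-15 1, at columns 17 and 18. Nfkbia, the inhibitor of NF-kappaB, behaved alike, at 17.3 to 23.1 CPM against 16.9 to 31.9 CPM (0.40, SE 0.16). Fkbp5 (0.04, SE 0.11) and Tsc22d3 (0.06, SE 0.15), glucocorticoid targets named after their values were seen, did not. Pdk4, the list member with the smallest p, leaned the other way with overlap, at 9.37 to 13.2 CPM against 8.10 to 10.1 CPM. Of the 18 genes of the list 12 were above 0 with a median of 0.03. E3-15 1 and E4-15 1 were also the lowest of time code 15 in their sets for Nfkbia (16.9 and 17.1 CPM) and Zfp36 (8.28 and 7.57 CPM). The part of column order in these values was not tested.

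**Figure D4:**
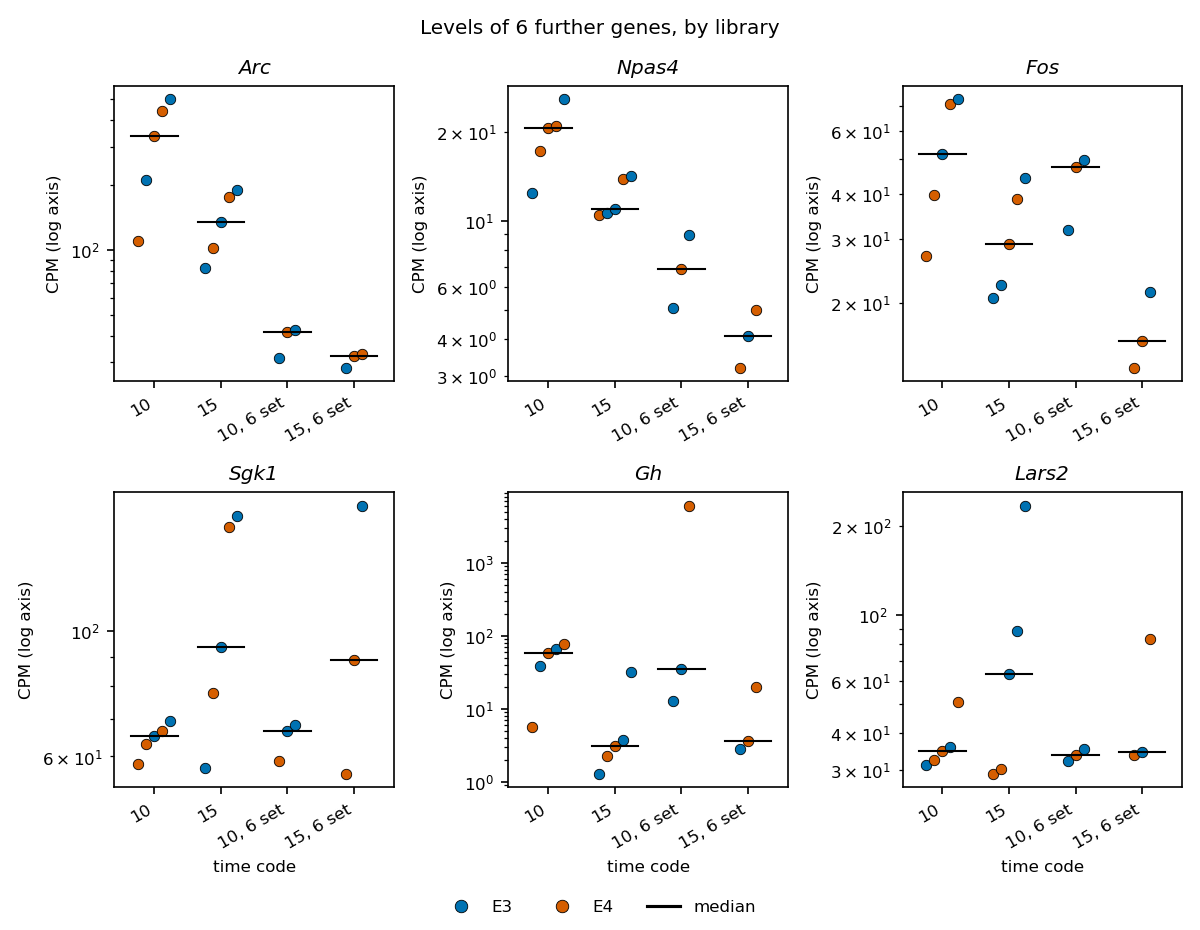
Level (CPM, log axis) of Arc, Npas4, Fos, Sgk1, Gh and Lars2 in each library, by time code, for the 10 libraries (10, 15) and the 6 at column multiples of 3 (6 set). Points are libraries coloured by E code and bars are medians. Sgk1 spans 58.3 to 69.4 CPM at time code 10 and 57.2 to 160 CPM at time code 15.

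Pituitary hormones were lower at time code 15 in most libraries. Gh, the growth hormone, was at 58.8, 66.9, 38.9, 5.67 and 76.0 CPM at time code 10 and at 31.6, 1.28, 2.23, 3.07 and 3.72 CPM at time code 15, where E3-15 1 was within the range of time code 10 (-3.05, SE 0.96). Prl, prolactin, was at 0.614 to 15.3 CPM against 0.323 to 4.55 CPM (-2.77, SE 0.91), with the same libraries high. Of the 6 libraries, E4-10 2 carried 6090 CPM of Gh and the other 5 had 2.77 to 34.6 CPM. These hormones are made mainly in the pituitary gland, and the part of gland tissue in these values was not tested. The median of the 12 hypothalamic and pituitary genes was 0.16, with 5 below 0 and 7 above, but its sign rested on single libraries. It was -0.72 without E3-15 1, -0.06 without E3-10 3, 0.49 without E4-10 4 and -0.32 without the 3 libraries with high Lars2. For the 6 libraries it was -1.37 with 12 of 12 below 0, and -0.21 without E4-15 4.

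Region markers within the forebrain varied as much between libraries as between time codes. Of 13 striatal genes 12 were below 0 (median -0.34), but the list stood at 7.12 and 7.55 log2 CPM in E4-10 3 and E4-10 4 and at 3.86 in E3-15 2, with the other 7 at 5.74 to 6.88. Without both E4-10 libraries the median was 0.28. Thalamus genes were above 0 in 11 of 12 (median 0.36), with Prkcd at 12.0 to 273 CPM against 13.9 to 290 CPM, and the median was 0.00 without the same libraries. Without the 3 libraries with high Lars2 the striatal median was -0.90 and the thalamus median 0.94. With 1 library left out they ran from -0.60 to -0.09 and from 0.11 to 0.91. Choroid plexus genes were above 0 in 12 of 13 (median 0.51), with a median of 0.19 to 1.02 when 1 library was left out, and the list was lowest in E4-10 3, at 0.953 log2 CPM against 2.95 to 4.71 in the other 9. Of these lists 0 members passed in edgeR. Ahnak (-0.74), Pdxk (-1.08), Oasl2 (-0.59) and H2-K1 (-0.58) differed by more without E4-10 3 and E4-10 4, and Trim21 (-0.80) by less.

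Whether the time contrast differed between E3 and E4 was tested as an interaction. It had 0 genes with an adjusted p under 0.05 in edgeR (0%), with 494 at an unadjusted p under 0.05, while DESeq2 called 18 (0.0952%), of which 15 were more positive in E4. Lmod1, Acta2 and Myh11 of the mural cell list are among the 15, as are Ptgds, Ogn, Aldh1a2 and Slc6a13 of the fibroblast list. The 3 that were more negative in E4 are LOC118568007 and 2 short structured RNAs, Rpph1 and Rn7sk. The E3 libraries of time code 15 are those with high Lars2 and Rn7sk, and their part in the interaction cannot be told apart from it. Lmod1 was at 7.80 and 7.34 CPM in both E3 libraries of time code 10 and at 3.48, 3.61 and 3.13 CPM in E3 at time code 15. In E4 it was at 3.08, 3.52 and 3.12 CPM at time code 10 and at 4.25 and 5.76 CPM at time code 15. The 2 differences were -1.14 in E3 and 0.62 in E4 (interaction 1.76, SE 0.25; edgeR adjusted p = 0.513, DESeq2 adjusted p = 7.32e-06).

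Acta2, the smooth muscle actin, showed the same order, at 72.7 and 55.9 CPM against 27.8, 36.3 and 25.8 CPM in the E3 libraries and at 21.0, 28.9 and 30.4 CPM against 35.2 and 47.5 CPM in the E4 libraries (interaction 1.71, SE 0.30; edgeR adjusted p = 0.841, DESeq2 adjusted p = 0.000707). Both contrasts rest on E3-10 2 and E3-10 3 as the only E3 libraries of time code 10. Among class II genes, H2-Aa was -2.08 in E3 and -0.06 in E4 (interaction 2.01, SE 0.83; edgeR adjusted p = 1). Ahnak was -0.82 in E3 and -0.41 in E4 (interaction 0.41, SE 0.18; edgeR adjusted p = 1). Oasl2 stood at -0.67 and -0.44 and Pdxk at -1.05 and -0.74. For Ahnak and Oasl2 the time codes did not overlap, which fixes a sign below 0 in both codes. Pdxk was named by its low p in the same libraries. These signs are therefore a description and no test.

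The 6 libraries give each of these values in samples that the division left out. Of the 122 genes that lay lower without overlap in the 10, 121 were measured there, and 77 (63.6%) were below 0, against 51.5% of all 19128 genes tested in both. All 3 libraries of time code 15 lay below all 3 of time code 10 in 17 of the 121 (14.0%), against 4.50% of all genes in common and 4.55% of the 21174 genes tested in the 6. Of 62 measured genes that lay higher without overlap, 8 (12.9%) did so again, against 4.03%. Besides Ahnak, Oasl2 and Cavin1, the 17 include Zbtb44, a zinc finger factor (-0.35, SE 0.08, and -0.23, SE 0.11), Alkbh5, which removes methyl groups from RNA adenosine (-0.25, SE 0.07, and -0.18, SE 0.11), and Insig2, a brake on cholesterol synthesis (-0.23, SE 0.08, and -0.13, SE 0.10). Among the 8 was Smpd1, the lysosomal sphingomyelinase (0.10, SE 0.05, and 0.07, SE 0.09). These genes were named after their values were seen. No gene differed between both sets in this contrast in edgeR, with 0 of 22229 called (0%) and 651 at an unadjusted p under 0.05, and DESeq2 called 0.

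**Figure D5:**
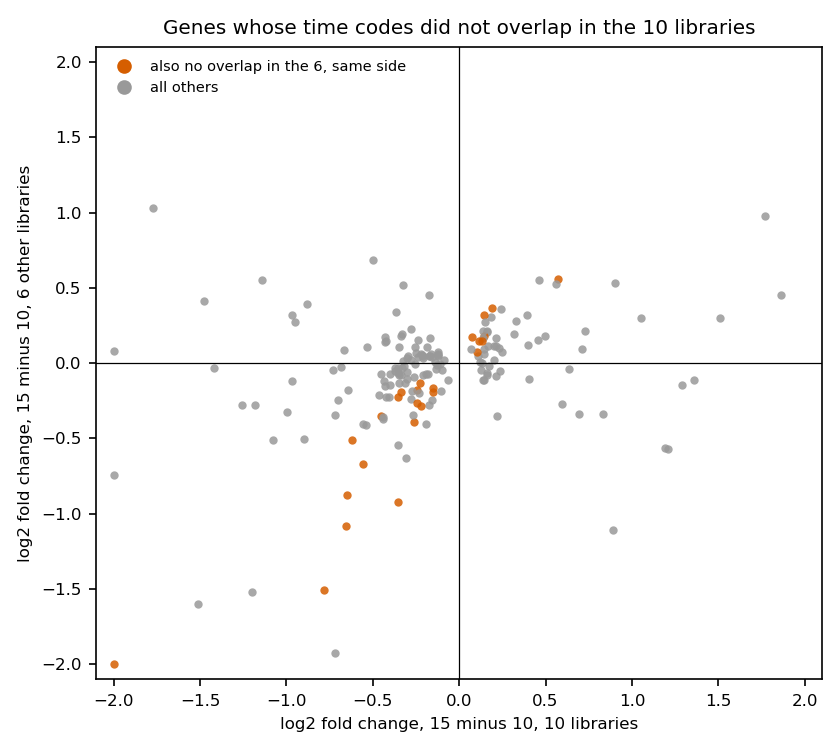
Log2 fold change (time code 15 minus 10) in the 10 libraries (x axis) and in the 6 libraries at column multiples of 3 (y axis) for the 183 genes whose time codes did not overlap in the 10 and that were measured in the 6. Each point is a gene, those in colour are the 25 that did not overlap in the 6 either and on the same side, and 3 points beyond 2 are drawn at the edge. The x values were selected for lack of overlap, so only the y values are free.

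Symbols beginning with Zfp, most of them Krüppel-type DNA-binding repressors, made up 15 of the 122 lower genes (12.3%) and 1.93% of all genes tested, a pattern noticed after the values were seen. Of 379 tested, 287 (75.7%) were below 0, with a median of -0.08. For the 6 libraries 147 of 379 were below 0, with a median of 0.05, the opposite direction. Zfp329 differed by -0.30 (SE 0.07) in the 10 and by -0.06 (SE 0.20) in the 6.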

How the data were processed

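The authors deposited 1 table of raw read counts per gene symbol for the 24 libraries, with no normalization. The submitters' processing notes name HISAT2 2.1.0, featureCounts 2.0.6 and the build mm39. The annotation, strand setting and treatment of multi-mapping reads are not given in the sources used here. The table has 40836 genes and no positions, so coordinates are given only for RefSeq sequences of another build. Columns were joined to libraries by the number in each label, which left 0 columns unmapped. Of counts from 1 to 19, 66.7% to 70.7% per library were even in the 10, as when both reads of a pair are counted, so counts overstate the number of fragments.

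Genes were kept by filterByExpr over time code by E code. They were tested with edgeR 4.0.16 (R 4.3.3) by quasi-likelihood F tests with TMM factors and E code as a covariate, at 7 residual degrees of freedom, a biological coefficient of variation of 21.1% and a Benjamini-Hochberg adjusted p under 0.05. The 6 other libraries, the interaction of E code and time code, and that of time code and column class were fitted likewise. DESeq2 1.42.0, limma-voom (limma 3.58.1), other factors and filters, a replicate block, no E code term, a column position term and leaving out each library were alternatives. CPM use TMM factors over all 24 libraries, and list means use log2 CPM with a prior count of 2, computed here from the deposited counts. The 95% intervals use the residual degrees of freedom. Scripts were tested on simulated data.

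Genes were named by rule: in each direction the 4 of lowest p, those given with the comparison, the genes of the title, and for every list at most 4 members of lowest p. All others, including those of the E code interaction, Lars2, Anxa2, Tap2 and Ptprc, were named after their values were seen. The counts of genes without overlap were also chosen after seeing the data. The members and the 42 lists were chosen with earlier results of these data known. Same-numbered libraries of both time codes did not deviate together (6 pairs, correlation -0.24 to 0.29, median 0.10), so the number was not used as a block. Some items are not reported here.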

Additional observations from a re-analysis of the deposited data

Results flagged for a closer look

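Of 110 groups of 5 libraries tested (the level of a named gene or the mean of a list at a time code), 8 had a highest or lowest library far from the others, where chance gives about 1 in 20. At time code 10, Pdxk in E4-10 4 was 134 CPM, with the others at 248 to 294 CPM. At time code 15, Nr1h3 in E3-15 4 was 2.26 CPM, with the others at 3.19 to 3.44 CPM. The striatal list in E3-15 2 was 3.86 log2 CPM, with the others of time code 15 at 6.12 to 6.88. The interneuron list in E3-10 3 was 6.37 log2 CPM, with the others of time code 10 at 6.67 to 6.74. The cholesterol synthesis list was 5.77 log2 CPM in E3-10 3 (others 5.70 to 5.71) and 5.82 in E3-15 1 (others 5.71 to 5.74). The replication-dependent histone list in E3-15 1 was 2.18 log2 CPM (others 1.71 to 1.83), and that of SR proteins and splicing regulators in E4-10 4 was 6.84 (others 6.89 to 6.91).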

How the results depend on the processing

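In the 10 libraries, DESeq2 called 3 genes lower and the fit to 16 libraries with a class term called 2 lower (Ahnak and Pdxk, adjusted p = 0.0311 for each in edgeR). All other alternatives run for this comparison called 0 in either direction, including the fit with the replicate block (0 called) and, added after seeing the data, those without the 3 libraries with high Lars2 and without E4-10 3 and E4-10 4. The interaction of E code and time code gave 8 calls with no filter and 18 in DESeq2. The 6 libraries gave 9 calls in DESeq2, among them Calml3, Krt13, Platr21, Vgll1 and Gm36561 with extreme log2 fold changes (20.7, 21.8, -20, -19.9 and -21.8). In edgeR they gave 0 to 1475 calls with 1 library left out. The 1475 came without E3-10 4 (2 residual degrees of freedom, Ahnak -0.52 with edgeR adjusted p = 0.0126, Pdxk -0.88 with adjusted p = 0.0051) and the cause was not tested. Calls of the class interaction ran from 0 to 2, the 2 also without E3-10 4. The log2 fold change of Nr1h3 was 0.0346 with the class term, 0.178 without the 3 libraries with high Lars2, and -0.134 to 0.0278 with 1 library left out. That of Apoe was -0.0138 without E4-10 3 and E4-10 4 and -0.0116 to 0.129 with 1 library left out. Genes without overlap numbered 166 to 294 lower and 100 to 188 higher with 1 library left out, as fewer libraries make an overlap less likely. Depth limits genes under 1 CPM, such as Gm40364, with 4 to 22 counts per library. Leaving E4-15 4 out of the 6 libraries for the list medians was chosen after seeing the data.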
